A study of Rattus norvegicus with 6 samples.

Results

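Interferon-stimulated genes are the antiviral and immune genes that cells switch on when interferon binds its receptors. The genes described here were chosen as a list of 30 symbols. No cut on their measured values was used, but earlier results of these data were known. Of the 30 symbols, 29 were found among the 32623 genes in the files. Xaf1 has no row under that symbol and is not analysed here. RNA was sequenced from liver sinusoidal endothelial cells, the fenestrated cells that line the capillaries of the liver, isolated from Han Wistar rats. They were cultured for 48 h in a perfused device together with hepatocytes, stellate cells and hepatic macrophages, at a shear stress of 1.15 dyn/cm2. The physiological group was held at 1 mmHg (3 libraries) and the pathological group at 12 mmHg (3 libraries), with no other treatment named, and the labels give neither the age of the rats nor whether libraries came from separate animals. P-values therefore cover only the variation among these libraries, part or all of which may be technical.

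Type I interferons act through a receptor pair and the kinases JAK1 and TYK2 to form a complex that includes STAT2 and IRF9 and binds the interferon-stimulated response element (ISRE) of target genes. Many targets of interferon gamma carry another element, the gamma-activated site (GAS). The targets include sensors of viral RNA, transcription factors that amplify the response, and enzymes and membrane proteins that block viral replication. In the liver, sinusoidal endothelial cells, macrophages and hepatocytes can all respond to interferon.

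The response element is what these genes share on paper, so its letters were looked for in their promoters, from 250 bases before to 50 bases after the start site (RefSeq, rat build GRCr8). The promoter table held 21 of the 29 genes. The ISRE-type letters GAAANNGAAA were found on either strand in 14 of the 21 promoters (66.7%), against 1312 of all 33469 promoters of the same length (3.92%). The GAS-type letters TTCNNNGAA were found in 8 of 21 (38.1%), against 8.87% of all promoters. Both motifs occurred in 5 members, and they overlapped by some letters in 1 case, in Bst2. Of the 19 ISRE-type matches in members, 14 lay within 100 bases before the start site. Stat2, Oasl, Trim25 and Mx1 held neither motif in this window. A match is a description of letters and not of binding, and no interferon was added in this study. A selection of the sites is shown 5′ to 3′ on the gene's strand, with 1 match per line in capitals. ISRE-type matches beginning with TTTC therefore lie on the opposite strand. In Oas1a and Bst2 another ISRE-type match overlaps the capitals and runs into the lower-case letters, which in Bst2 also hold the GAS-type match. The last 2 are GAS-type.
Ifih1, chr3:67684003-67684042, minus strand: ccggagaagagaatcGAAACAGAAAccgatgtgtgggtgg
Irf7, chr1:205800068-205800107, minus strand: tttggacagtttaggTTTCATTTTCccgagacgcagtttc
Ifit3, chr1:241527267-241527306, plus strand: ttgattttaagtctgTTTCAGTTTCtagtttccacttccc
Oas1a, chr12:41330416-41330455, plus strand: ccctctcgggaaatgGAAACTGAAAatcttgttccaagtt
Rsad2, chr6:48788243-48788282, minus strand: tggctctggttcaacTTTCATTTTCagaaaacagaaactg
Isg20, chr1:142239952-142239991, plus strand: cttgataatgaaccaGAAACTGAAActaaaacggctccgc
Gbp2, chr2:234005681-234005720, plus strand: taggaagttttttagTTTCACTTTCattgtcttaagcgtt
Bst2, chr16:18255068-18255107, minus strand: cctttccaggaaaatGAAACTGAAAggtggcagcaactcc
Irf1, chr10:38417778-38417816, plus strand: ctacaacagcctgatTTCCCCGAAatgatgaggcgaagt
Irf9, chr15:33065722-33065760, plus strand: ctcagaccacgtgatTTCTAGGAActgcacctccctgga

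**Figure D1:**
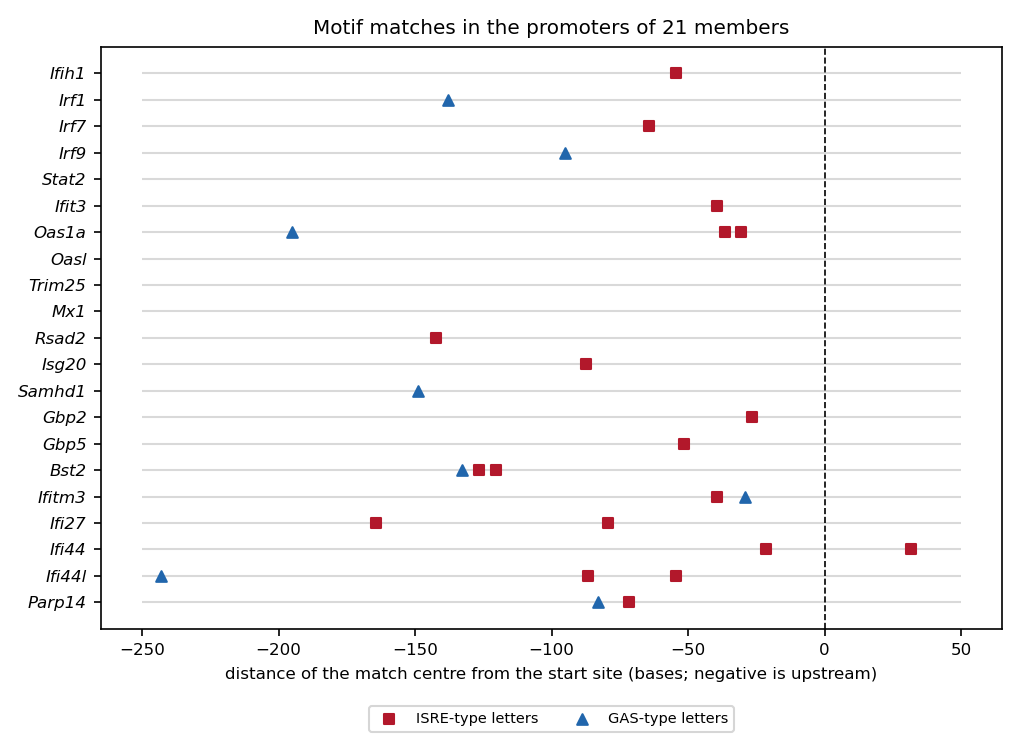
Positions of ISRE-type (squares) and GAS-type (triangles) letters in the promoters of the 21 members with a promoter entry, as the distance of the match centre from the start site in bases. The grey lines are the 300-base windows, and 14 of the 19 ISRE-type matches lie within 100 bases before the start site.

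The libraries differed in depth and in the RNA of other liver cells. Totals ran from 8925149 to 24025406 counts, and 10234 to 17189 genes had a count, with both ranges lowest in replicate 3 of each pressure. Levels are CPM, counts scaled to 1e+06 per library on TMM-scaled totals, unless stated otherwise. Marker sums are on unscaled totals. For the hepatocyte list (38 genes, all with counts in some library), the sums were 351, 57809 and 41174 CPM at 1 mmHg and 514, 878 and 80998 CPM at 12 mmHg, in the order of replicates 1, 2 and 3. Physiological replicate 1 and pathological replicates 1 and 2 were thus poor in hepatocyte transcripts and the other 3 libraries rich in them. The 3 rich libraries also had the lowest totals, 8925149 to 17117840 counts, against 23649036 or more in the poor ones. They had the fewest genes with a count, 10234 to 12833, against 13729 or more. Hepatocyte content and depth therefore cannot be told apart in this division. The same 3 libraries also held the highest sums of sinusoidal endothelial markers (15 of 15 genes in the files), which were 2343, 7004 and 4447 CPM at 1 mmHg and 1390, 508 and 7510 CPM at 12 mmHg. Stellate markers did likewise (16 of 17 genes in the files, Lum at 0 throughout), at 703, 1322 and 1111 CPM and at 522, 420 and 1543 CPM. Pan-endothelial markers (14 of 16 genes in the files, Cldn5 at 0 throughout) summed to 1788 to 3073 CPM at 1 mmHg and 860 to 2426 CPM at 12 mmHg. Gene by gene, every rich library lay above every poor one for 35 of 38 hepatocyte markers, 10 of 17 macrophage, 9 of 15 sinusoidal, 9 of 16 stellate and 5 of 14 pan-endothelial markers. That order held for 0 of 19 lymphocyte and dendritic cell markers and 0 of 6 cholangiocyte markers. The reverse order held for 1 stellate marker, Reln, and 1 lymphocyte and dendritic cell marker, Ptprc. The 6 other sinusoidal markers, Stab1, Mrc1, Gata4, Cd36, Flt4 and F8, followed neither order. The macrophage list (17 of 18 genes in the files, Timd4 at 0 throughout) summed to 944 to 1527 CPM at 1 mmHg and 48.7 to 1726 CPM at 12 mmHg, lowest in pathological replicate 2. The lymphocyte and dendritic cell list summed to at most 163 CPM. In bulk RNA, fewer cells of a type and less RNA per cell cannot be told apart.

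No interferon-stimulated gene was called between 1 and 12 mmHg. In the edgeR quasi-likelihood fit, 0 of the 28 members that passed the filter on low counts had an adjusted p under 0.05, and 0 had an unadjusted p under 0.05. DESeq2 and limma-voom also called 0 members. Over all 12742 genes tested, 0% had an adjusted p under 0.05 and 0.259% an unadjusted p under 0.05. The smallest unadjusted p among the members was 0.204, for Oasl, with an edgeR adjusted p of 1, and the same adjusted p of 1 holds for every member below. The fold changes were negative for 20 members and positive for 8, while 47.5% of all genes tested were negative. The median log2 fold change of the members was -0.51, against 0.05 over all genes tested, with a median standard error of 1.57 per member. This direction rested on single libraries. The median was 0.21, with 15 positive, without physiological replicate 2, -0.03, with 13 positive, without pathological replicate 1, and -1.39 without pathological replicate 3. Leaving out pathological replicate 3 kept only libraries poor in hepatocyte transcripts at 12 mmHg, so pressure and hepatocyte content were partly confounded there.

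**Figure D2:**
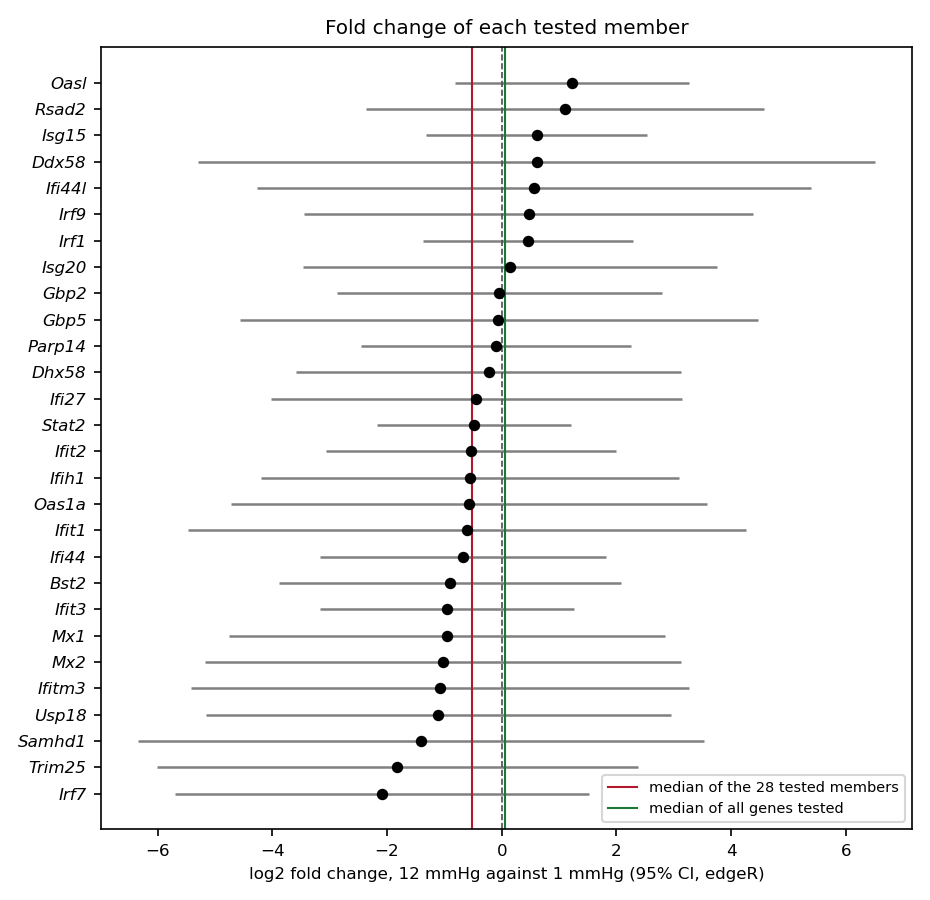
Log2 fold change at 12 mmHg against 1 mmHg for the 28 tested members, ordered by size, with 95% confidence intervals from edgeR (3 libraries per pressure). Every interval spans 0, and the red and green lines mark the medians of -0.51 for the members and 0.05 for all genes tested.

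At 1 mmHg the 29 members summed to 621, 5660 and 3577 CPM, and at 12 mmHg to 546, 1326 and 5017 CPM. The 3 libraries rich in hepatocyte transcripts held the 3 highest sums, and the groups overlapped. Ifi27, Bst2 and Ifitm3 made up 60.7% to 67.5% of the sum in those 3 libraries and 10.5% to 24.2% in the others. In 11 of the 28 tested members every library rich in hepatocyte transcripts lay above every poor one, against 18.3% of all genes tested. The reverse order held for 1 member, Ddx58, against 30.2% of all genes. For Ddx58 it rested on 5.21 CPM in physiological replicate 2 against 5.22 CPM in pathological replicate 1. Replicate 3 of each pressure had a count of 0. The 11 members, which were the same ones with unscaled totals and with RLE scaling, are Dhx58, Irf7, Ifit2, Ifit3, Oas1a, Mx1, Mx2, Gbp2, Bst2, Ifitm3 and Ifi27. Of the 8 of them with a promoter entry, 7 held ISRE-type letters, and so did 7 of the 13 other members with an entry. Some but not all macrophage, sinusoidal and stellate markers had the same order, by the counts given above. The rich libraries also had the lowest totals. The part of each cell type, or of depth, in the members' values was not tested.

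**Figure D3:**
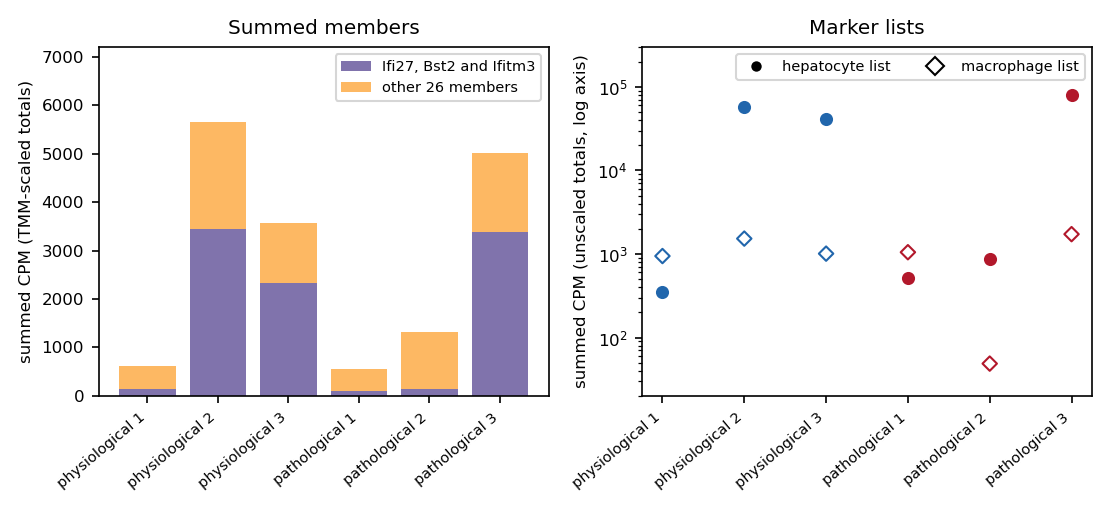
Left, summed CPM of the 29 members in each library, with Ifi27, Bst2 and Ifitm3 in purple and the other 26 in orange. Right, summed CPM of the hepatocyte (filled circles) and macrophage (open diamonds) marker lists on a log axis, blue at 1 mmHg and red at 12 mmHg. The member sum is highest, from 3577 to 5660 CPM, in the 3 libraries with 41174 to 80998 CPM of hepatocyte markers.

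**Figure D4:**
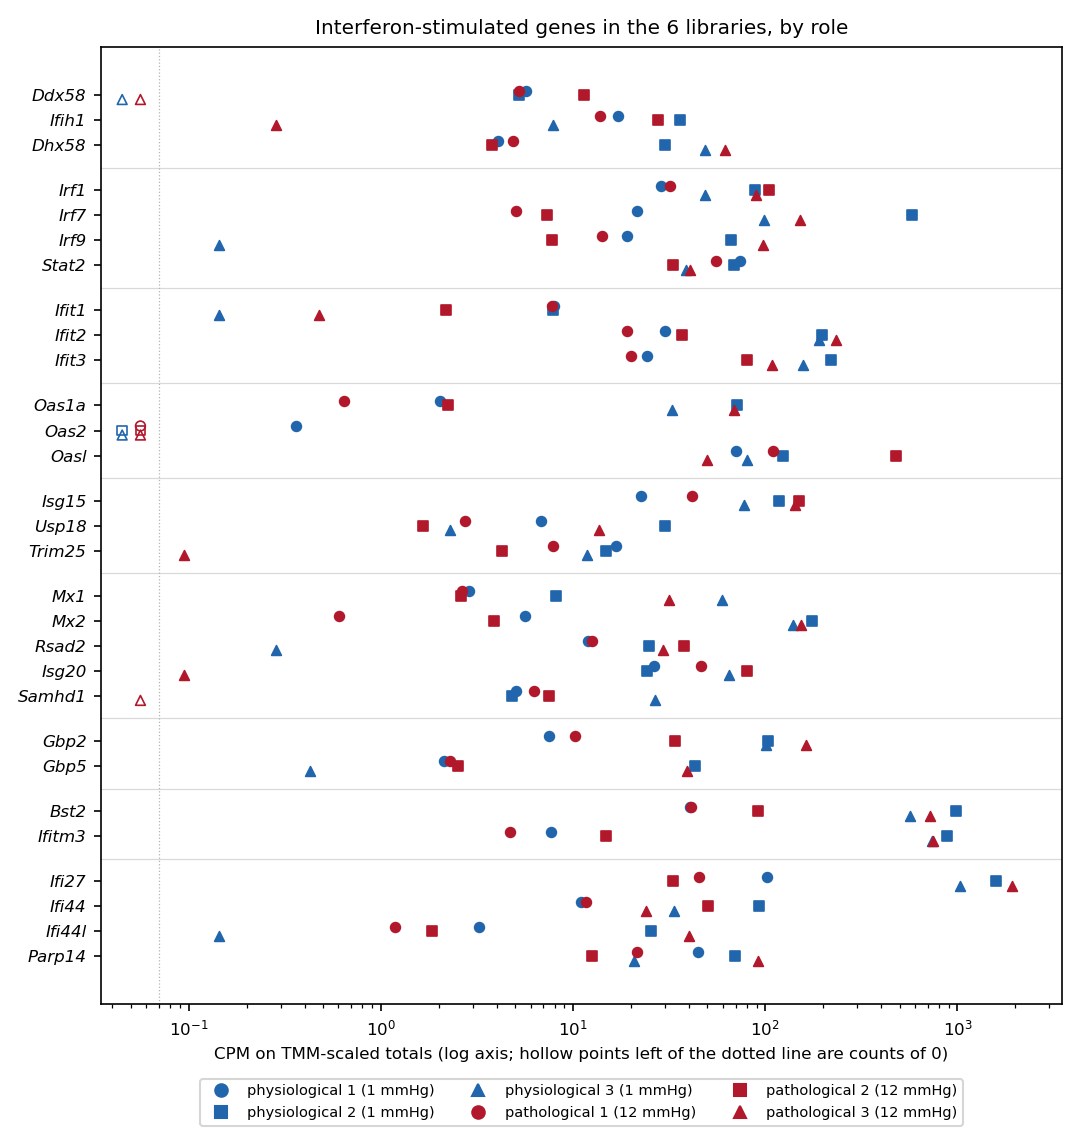
CPM of each member in each library on a log axis, grouped by role, blue at 1 mmHg and red at 12 mmHg, with circles, squares and triangles for replicates 1, 2 and 3. Hollow points are counts of 0. The colours overlap for every member except Trim25, while in 11 members physiological replicates 2 and 3 and pathological replicate 3 stand to the right of the rest.

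None of the 3 sensors of viral RNA passed the test. In what follows, values at each pressure are in the order of replicates 1, 2 and 3. Ifih1 encodes MDA5, a helicase that detects long double-stranded RNA. It measured 17.1, 35.8 and 7.84 CPM at 1 mmHg and 13.8, 27.5 and 0.284 CPM at 12 mmHg, with log2 fold change -0.55 (SE 1.58, 95% CI -4.19 to 3.09, unadjusted p = 0.738). The low value of pathological replicate 3 rested on 3 counts. Dhx58 (LGP2), a helicase that modulates the other sensors, measured 4.05, 30.1 and 48.7 CPM at 1 mmHg and 4.86, 3.79 and 61.9 CPM at 12 mmHg. Its groups overlapped fully, and the 3 libraries rich in hepatocyte transcripts held its 3 highest values. Ddx58 encodes RIG-I, the sensor of viral RNA ends. It measured 5.69, 5.21 and 0 CPM at 1 mmHg and 5.22, 11.4 and 0 CPM at 12 mmHg, and the counts of 0 allow up to 0.428 CPM in physiological and 0.284 CPM in pathological replicate 3, for counting error only.

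Among the transcription factors, Irf7 had the largest negative fold change of all members. Irf7 amplifies type I interferon production. It measured 21.6, 578 and 98.8 CPM at 1 mmHg and 5.04, 7.34 and 152 CPM at 12 mmHg, with log2 fold change -2.08 (SE 1.56, 95% CI -5.69 to 1.52, unadjusted p = 0.219). Physiological replicate 2 alone held the value of 578 CPM, and without it the log2 fold change was -0.12. Stat2, the transducer that is specific to type I and III interferons, varied least of all tested members. Its values were 73.7, 68.9 and 38.8 CPM at 1 mmHg and 55.1, 33.2 and 40.6 CPM at 12 mmHg, a 2.22-fold range over the 6 libraries. Its log2 fold change was -0.49 (SE 0.73), and the groups overlapped. Irf1, which responds to interferon gamma and inflammatory signals, measured 28.5, 88.4 and 48.6 CPM at 1 mmHg and 31.9, 105 and 89.4 CPM at 12 mmHg, a 3.69-fold range, with a log2 fold change of 0.45 (95% CI -1.38 to 2.29). Irf9, the DNA-binding partner of STAT2, measured 19.1, 66.5 and 0.143 CPM at 1 mmHg and 14.2, 7.77 and 96.9 CPM at 12 mmHg. Its lowest value came from 1 count in physiological replicate 3.

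The IFIT proteins bind foreign RNA and block its translation. All 3 had negative fold changes that did not pass the test. Ifit3 had the smallest unadjusted p of the group, with 24.2, 219 and 158 CPM at 1 mmHg and 19.9, 80.4 and 108 CPM at 12 mmHg (log2 fold change -0.95, SE 0.96, 95% CI -3.16 to 1.26, unadjusted p = 0.352). Ifit2 measured 29.9, 198 and 191 CPM at 1 mmHg and 19.1, 36.7 and 234 CPM at 12 mmHg (log2 fold change -0.54, 95% CI -3.06 to 1.99). For both genes the first replicate was the lowest at each pressure. Ifit1 measured 7.93, 7.81 and 0.143 CPM at 1 mmHg and 7.76, 2.18 and 0.474 CPM at 12 mmHg, lowest in replicate 3 of both pressures, where it had 1 and 5 counts.

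The OAS family senses double-stranded RNA and, in its active members, makes a messenger that activates RNase L. Oasl, of this family, had the largest positive fold change of all members. It measured 70.8, 123 and 80.2 CPM at 1 mmHg and 110, 481 and 49.9 CPM at 12 mmHg, with log2 fold change 1.23 (SE 0.89, 95% CI -0.82 to 3.27, unadjusted p = 0.204). The 12 mmHg group held both the highest value, in pathological replicate 2, and the lowest, in pathological replicate 3, and without pathological replicate 2 the log2 fold change was -0.18. Pathological replicate 2 also held the lowest sums of macrophage (48.7 CPM), sinusoidal (508 CPM), pan-endothelial (860 CPM) and stellate markers (420 CPM). Any link of these sums to Oasl was not tested. Oas1a measured 2.04, 71.3 and 32.6 CPM at 1 mmHg and 0.644, 2.23 and 68.4 CPM at 12 mmHg, a 111-fold range with the 3 highest values in the libraries rich in hepatocyte transcripts. Oas2 had 11 counts in physiological replicate 1 and 0 in the other 5 libraries, and did not pass the filter on low counts.

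ISG15 is a ubiquitin-like protein that is attached to other proteins, and Usp18 removes it and restrains receptor signalling. Isg15 measured 22.5, 118 and 77.4 CPM at 1 mmHg and 41.4, 149 and 142 CPM at 12 mmHg, with log2 fold change 0.61 (95% CI -1.32 to 2.54, unadjusted p = 0.486). The highest physiological value, 118 CPM, lay between the lowest and the other pathological values, so the groups overlapped. Usp18 measured 6.84, 30 and 2.28 CPM at 1 mmHg and 2.75, 1.66 and 13.7 CPM at 12 mmHg (log2 fold change -1.11, 95% CI -5.16 to 2.95). Trim25, the ubiquitin and ISG15 ligase that activates RIG-I, was the 1 tested member whose groups did not overlap. It measured 16.7, 14.8 and 11.8 CPM at 1 mmHg and 7.87, 4.26 and 0.0948 CPM at 12 mmHg, with log2 fold change -1.82 (SE 1.82, 95% CI -6.01 to 2.37, unadjusted p = 0.346). Pathological replicate 3 had 1 count, and without that library the log2 fold change was -1.24. Groups did not overlap in the same direction for 3.05% of all genes tested and in the opposite direction for 1.56%, so 1 of 28 members is near the background. That order held with unscaled totals and with RLE scaling as well.

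The Mx proteins are dynamin-like GTPases that trap viral particles. Mx2 measured 5.59, 174 and 140 CPM at 1 mmHg and 0.608, 3.88 and 153 CPM at 12 mmHg (log2 fold change -1.02, SE 1.80, 95% CI -5.17 to 3.13, unadjusted p = 0.587). Mx1 measured 2.86, 8.16 and 59.7 CPM at 1 mmHg and 2.65, 2.61 and 31.4 CPM at 12 mmHg. Within each pressure both Mx genes were lower in the libraries poor in hepatocyte transcripts, by 31.1-fold for Mx2 and 20.9-fold for Mx1 between the extremes at 1 mmHg. Rsad2 (viperin), which makes a chain-terminating nucleotide, measured 12, 24.8 and 0.285 CPM at 1 mmHg and 12.6, 37.9 and 29.4 CPM at 12 mmHg. Its log2 fold change was 1.10 (95% CI -2.36 to 4.57, unadjusted p = 0.484), and physiological replicate 3 had 2 counts. Isg20, an exonuclease that degrades viral RNA, measured 26.3, 24.2 and 64.4 CPM at 1 mmHg and 46.2, 80.7 and 0.0948 CPM at 12 mmHg. The last value, 1 count, gave it an 852-fold range, the widest of the members with counts in all libraries. Samhd1, which depletes the nucleotides that viruses need, measured 5.03, 4.8 and 26.8 CPM at 1 mmHg and 6.26, 7.48 and 0 CPM at 12 mmHg.

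Guanylate-binding proteins attack the membranes of intracellular pathogens and respond strongly to interferon gamma. Their fold changes were close to 0 with wide intervals. Gbp2 measured 7.5, 103 and 101 CPM at 1 mmHg and 10.2, 34 and 162 CPM at 12 mmHg (log2 fold change -0.04, SE 1.23, 95% CI -2.87 to 2.79, unadjusted p = 0.976). Gbp5, which also promotes inflammasome assembly, measured 2.14, 42.9 and 0.428 CPM at 1 mmHg and 2.29, 2.51 and 39 CPM at 12 mmHg. Physiological replicate 2 and pathological replicate 3 stood far above the rest for Gbp5. The log2 fold changes of both genes flipped sign with RLE scaling, to 0.10 each.

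Both membrane restriction factors were far higher in the libraries rich in hepatocyte transcripts than in the poor ones, at either pressure. Bst2 (tetherin), which holds budding virus at the cell surface, measured 40.6, 979 and 568 CPM at 1 mmHg and 41.1, 91.1 and 717 CPM at 12 mmHg (log2 fold change -0.90, SE 1.30, 95% CI -3.89 to 2.08, unadjusted p = 0.505). Ifitm3, which blocks viral fusion in endosomes, measured 7.63, 878 and 733 CPM at 1 mmHg and 4.72, 14.8 and 749 CPM at 12 mmHg (log2 fold change -1.08, 95% CI -5.41 to 3.26). Between physiological replicate 1 and pathological replicate 1, both poor in hepatocyte transcripts, Bst2 was nearly equal. Between physiological replicates 2 and 3 and pathological replicate 3, all rich in them, the Ifitm3 values lay within 733 to 878 CPM.

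Of the remaining interferon-induced genes, Ifi27, a mitochondrial protein that promotes cell death, carried the most counts. It measured 102, 1578 and 1031 CPM at 1 mmHg and 45.2, 33.1 and 1922 CPM at 12 mmHg (log2 fold change -0.44, 95% CI -4.02 to 3.14, unadjusted p = 0.785). Without pathological replicate 3 its log2 fold change was -4.51, and without physiological replicate 2 it was 0.26. Ifi44 measured 11, 93.2 and 33.5 CPM at 1 mmHg and 11.7, 50.2 and 23.9 CPM at 12 mmHg (log2 fold change -0.68, SE 1.08, 95% CI -3.17 to 1.81, unadjusted p = 0.545). Replicate 2 was the highest and replicate 1 the lowest at both pressures for Ifi44. Its neighbour in name, Ifi44l, measured 3.22, 25.5 and 0.143 CPM at 1 mmHg and 1.18, 1.85 and 39.9 CPM at 12 mmHg. Parp14, an ADP-ribosyl transferase that acts with STAT signalling, measured 44.4, 69.8 and 20.7 CPM at 1 mmHg and 21.4, 12.6 and 91.8 CPM at 12 mmHg, a 7.26-fold range with full overlap.

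The members varied widely over the libraries. Within 1 mmHg the median ratio of the highest to the lowest CPM was 13.1 over the 27 tested members with counts in all 3 libraries, against 4.23 for all genes tested with such counts. Within 12 mmHg it was 16.1 over 26 members, against 5.13. Trim25, by contrast, varied 1.41-fold within 1 mmHg. Over all 6 libraries, among the 26 tested members with counts in all libraries the median ratio of the highest to the lowest CPM was 39.9, against 8.46 for all genes tested with counts in all libraries. The ratio exceeded 100 for 11 members and was under 5 for 2, Stat2 and Irf1. Physiological replicate 2 held the highest value of 10 of the 28 tested members (35.7%, against 13.5% of all genes) and the lowest of none. Pathological replicate 1 held the highest value of none and the lowest of 6 (21.4%, against 5.37% of all genes). In physiological replicate 3 and pathological replicate 3, the libraries with the lowest totals, 7 and 6 of the 29 members had 3 counts or fewer, against 0 or 1 in each other library. Over all genes tested, 34% and 35.1% had 3 counts or fewer in those 2 libraries and 1.64% to 13.3% in the others. Leaving both out, an alternative chosen after seeing the data, gave 0 members past the threshold. The median log2 fold change was then -1.35 for the members and -0.04 for all genes tested. Both libraries left at 12 mmHg were poor in hepatocyte transcripts, while physiological replicate 2 was rich in them. Pressure and hepatocyte content were thus partly confounded in that fit. Reads that match several genes are divided among them. The counts of Ifitm3, Oas1a, Mx1, Mx2 and Ifit1 were not whole in 6, 5, 4, 4 and 3 libraries. The levels of these genes are thus uncertain against genes that share their reads, which were not identified.

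Apart from Ifnk, the interferon genes themselves had few or no counts. Of 11 ligand genes in the files, Ifna2, Ifna5, Ifna16l1, Ifnb1, Ifng, Ifnl1 and Ifnl3 had 0 counts in all 6 libraries, which allows at most 0.0987 to 0.428 CPM per library for counting error only. Ifna4 had 3 counts and Ifna11 had 7, both in physiological replicate 1. Ifne had 12 and 3 counts in pathological replicates 1 and 2. Ifnk had 15 counts in physiological replicate 3 (2.14 CPM), 2 in pathological replicate 1 and 129 in pathological replicate 3 (12.2 CPM). None of these genes passed the filter on low counts, so they were not tested.

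Receptors were detected in most libraries, and 0 of 5 tested passed the threshold in either direction. Ifnar1, a chain of the type I receptor, measured 228, 55 and 60.7 CPM at 1 mmHg and 168, 88.1 and 0.284 CPM at 12 mmHg (log2 fold change -0.42, 95% CI -3.87 to 3.02). The 12 mmHg value of 0.284 CPM, in pathological replicate 3, rested on 3 counts. Its partner Ifnar2 measured 49.9, 10.7 and 0.143 CPM at 1 mmHg and 34.4, 21.7 and 17.2 CPM at 12 mmHg. Ifngr1, the ligand-binding chain for interferon gamma, measured 103, 11.3 and 0.713 CPM at 1 mmHg and 105, 22.1 and 118 CPM at 12 mmHg (log2 fold change 1.09, 95% CI -2.28 to 4.47). Ifngr1 was nearly equal in the first replicates of both pressures, and its lowest value came from 5 counts. Ifngr2 measured 38.7, 56.5 and 109 CPM at 1 mmHg and 39.7, 29.4 and 72.9 CPM at 12 mmHg. Il10rb, shared with type III interferon, ranged from 0.0948 to 56.7 CPM, and Ifnlr1 had 39, 22 and 0 counts at 1 mmHg and 9, 0 and 0 at 12 mmHg and was not tested.

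Signal transducers and inhibitors likewise gave no call, with 0 of 11 transducers, 0 of 11 further sensors and adaptors and 0 of 9 feedback inhibitors past the threshold. Irf5, a factor of macrophages and dendritic cells, measured 6.38, 4.4 and 7.55 CPM at 1 mmHg and 2.61, 0.0474 and 0 CPM at 12 mmHg, and its groups did not overlap (log2 fold change -2.77, 95% CI -8.43 to 2.90), an order found for 4 of the 83 pathway genes tested and 3.05% of all genes. Irf5 had 1 count in pathological replicate 2 and 0 in pathological replicate 3. Socs1, the suppressor that binds JAK kinases, had values that all lay higher at 12 mmHg. It was the 1 gene with that order among the 83 tested of the wider pathway, against 1.56% of all genes. It measured 3.45, 0.174 and 0.143 CPM at 1 mmHg and 5.51, 9.57 and 13.7 CPM at 12 mmHg (log2 fold change 2.91, SE 2.11, 95% CI -1.96 to 7.79, unadjusted p = 0.205). Socs1 had 3 counts in physiological replicate 2 and 1 in physiological replicate 3. Its relative Socs3 measured 11.8, 0.289 and 0.57 CPM at 1 mmHg and 9.83, 19.8 and 12.2 CPM at 12 mmHg, which overlapped. Among the inhibitors 7 of 9 fold changes were positive, with a median of 0.32. Of the sensors and adaptors, Tlr9 had the smallest unadjusted p (0.266), with 14 counts in physiological replicate 1 and 29 and 68 in pathological replicates 1 and 2.

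No other interferon-induced effector passed the test either. Of 47 tested, 0 passed the threshold, 36 had negative and 11 positive fold changes, and the median was -0.50. In 24 of the 47 the libraries rich in hepatocyte transcripts all lay above the poor ones, against 18.3% of all genes tested. The groups did not overlap for Cmpk2, Igtp and Tor3a, all lower at 12 mmHg, against 3.05% of all genes. Cmpk2, a mitochondrial nucleotide kinase, measured 1.41, 20.5 and 9.12 CPM at 1 mmHg and 0.536, 0 and 0 CPM at 12 mmHg (log2 fold change -5.76, SE 2.80, 95% CI -12.22 to 0.69, unadjusted p = 0.0735). This was the smallest p of the wider pathway, and 15 counts in pathological replicate 1 were the whole signal at 12 mmHg. Igtp, an immunity-related GTPase, measured 9.57, 15.4 and 16.8 CPM at 1 mmHg and 5.11, 5.54 and 0.0948 CPM at 12 mmHg. Its value in pathological replicate 3 was 1 count. Tor3a, an interferon-responsive ATPase, measured 7.04, 7.87 and 22.5 CPM at 1 mmHg and 5.18, 3.36 and 0 CPM at 12 mmHg. Members and effectors were read in the same 6 libraries, so the effectors are no independent evidence of a direction.

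**Figure D5:**
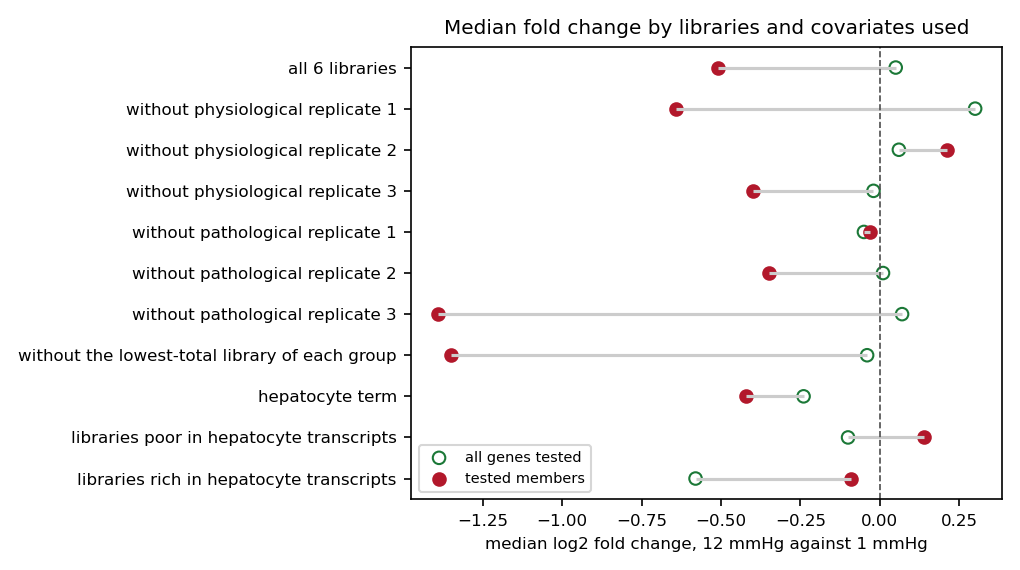
Median log2 fold change at 12 mmHg against 1 mmHg over the tested members (red) and over all genes tested (green circles), with all 6 libraries, with libraries left out, with a term for hepatocyte transcripts, and within libraries poor or rich in them. The members' median is lowest, -1.39, when pathological replicate 3 is left out and highest, 0.21, when physiological replicate 2 is. Without pathological replicate 3, only libraries poor in hepatocyte transcripts remain at 12 mmHg.

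The comparison was repeated within libraries of like hepatocyte content, a division that also follows the totals. With the 3 poor libraries, 1 at 1 mmHg and 2 at 12 mmHg, 15 of 28 members were positive and the median was 0.14, against -0.10 for all genes tested. The member with the smallest p there was Isg15, with log2 fold change 2.08. It had 22.5 CPM at 1 mmHg against 41.4 and 149 CPM at 12 mmHg. With the 3 rich libraries, 2 at 1 mmHg and 1 at 12 mmHg, 12 of 28 were positive and the median was -0.09, against -0.58 for all genes. The member with the smallest p there was Isg20, with log2 fold change -8.69. It had 24.2 and 64.4 CPM at 1 mmHg against 1 count at 12 mmHg. In both fits the lone library was assumed to vary like the others, and 0 members passed the threshold. With log2 of the summed hepatocyte marker CPM as a term over all 6 libraries, the median was -0.42, against -0.24 for all genes. There, 0 members passed. Irf7 had the smallest p in that fit (unadjusted p = 0.0265, edgeR adjusted p 0.992 or more over the members), with log2 fold change -1.94.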

How the data were processed

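Each library's file, as deposited, holds expected counts, which per the file headers are estimated reads for each gene and are not normalized. STAR, RSEM and limma are named without versions in the submitters' processing notes, while the genome build, gene annotation and strand setting behind the counts were not given in the sources used here. Libraries were made from polyA RNA, per the labels. Groups follow the labelled pressure; replicates 1, 2 and 3, numbered in accession order, are the labels' samples 2, 11 and 22 at 1 mmHg and 3, 9 and 23 at 12 mmHg. The labels state no pairing.

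Expected counts were rounded to whole numbers and tested with edgeR 4.0.16 (quasi-likelihood, TMM, filterByExpr, no covariate, R 4.3.3) on all genes, which left 12742 of 32623. P-values are two-sided and Benjamini-Hochberg adjusted over all genes tested, with a threshold of 0.05. SE and 95% intervals come from that fit. Floors for counts of 0 use 3 counts per library and cover counting error only. Libraries were divided at 10000 summed CPM of hepatocyte markers. All pairs of libraries differed by more than sampling noise (chi-square per degree of freedom 81.9 or more). Of 110 listed pathway symbols, 102 were in the files, and Cgas and Sting1 appear there as Mb21d1 and Tmem173.

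The members, lists and alternatives were chosen with earlier results of these data known. Named genes are all members, and of the wider pathway the ligands, receptors, genes whose groups did not overlap, and otherwise the gene with the smallest p in a class. Socs3 was added after its values were seen. A further gene that the rule names is not reported here. Alternatives were RLE, upper-quartile and no scaling, 2 other filters, DESeq2 1.42.0, limma-voom (limma 3.58.1), leaving out libraries, hepatocyte content, and a block by neighbouring sample number.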

Additional observations from a re-analysis of the deposited data

How the results depend on the processing

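No member and no pathway gene passed the threshold over the alternatives run, except that 4 pathway genes (Usp25, Ifngr1, Ifnar1 and Tdrd7) passed among the libraries rich in hepatocyte transcripts, where 1 library stands for 12 mmHg and 244 of 12652 genes were called. DESeq2 called 1 of 12742 genes and limma-voom 0. Without pathological replicate 3, 8 members had an unadjusted p under 0.05 (edgeR adjusted p 0.858 or more), against 5.81% of all genes. Both libraries then left at 12 mmHg were poor in hepatocyte transcripts, unlike physiological replicates 2 and 3. The number of positive members ran from 7 to 15 with 1 library left out, was 15 with the libraries poor in hepatocyte transcripts, and was 11 with RLE scaling, which moved the median of all genes tested to 0.15. The members' median ran from -1.39 to 0.21. The labels state no pairing, but sample numbers lie near each other across pressures (2 and 3, 11 and 9, 22 and 23). Deviations from the group means correlated at 0.69, -0.24 and 0.42 across genes in these pairs, so not every pair deviated together. In pairs without neighbouring numbers the correlations ran from -0.65 to 0.45, the latter for physiological replicate 1 and pathological replicate 2. The correlations therefore do not show that neighbouring numbers are pairs. A replicate block on these numbers, added after seeing the data, called 0 members and 0 pathway genes, with 7 members positive and a median of -0.72. Under this block the sign changed for Gbp5 (0.28), Ifi44l (-0.79) and Isg20 (-0.33). Replicate 3 of each pressure, with the lowest totals, limits what can be said of members with few counts there.

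The sign of the fold change was the same in every alternative for 8 of 28 members (Ifit1, Irf1, Irf7, Isg15, Mx2, Rsad2, Stat2 and Trim25). For the others the log2 fold change took the other sign as follows, and the cause was not tested. With RLE scaling and DESeq2 it was 0.10 for Gbp2, 0.10 for Gbp5 and 0.01 for Parp14. With limma-voom it was 0.34 for Gbp5 and -0.80 for Isg20. With the hepatocyte term it was -1.43 for Ddx58, 0.68 for Gbp2, 0.15 for Gbp5, 0.04 for Ifi44, -0.08 for Ifi44l and -2.23 for Isg20. In the poor libraries it was 0.70 for Bst2, 0.11 for Dhx58, 1.55 for Gbp2, 0.18 for Gbp5, 1.49 for Ifi44, -1.08 for Ifi44l, 0.27 for Ifih1, 1.05 for Ifit3, 0.35 for Ifitm3, -0.78 for Irf9 and 0.46 for Samhd1. In the rich libraries it was -7.94 for Ddx58, 0.67 for Dhx58, 0.68 for Gbp2, 0.84 for Gbp5, 0.57 for Ifi27, 0.28 for Ifit2, -8.69 for Isg20, 0.40 for Oas1a, -1.01 for Oasl and 1.03 for Parp14. Without the lowest-total library of each group, added after seeing the data, it was -3.24 for Ifi44l, -1.97 for Irf9 and 0.48 for Samhd1.

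With 1 library left out the sign also depended on the library. The range was -0.47 to 1.19 for Ddx58, -2.65 to 0.45 for Dhx58, -1.66 to 0.47 for Gbp2, -2.64 to 3.41 for Gbp5, -4.51 to 0.26 for Ifi27, -1.37 to 0.42 for Ifi44, -2.65 to 2.97 for Ifi44l, -1.51 to 0.17 for Ifih1, -1.37 to 1.94 for Irf9, -0.70 to 0.75 for Isg20, -3.14 to 1.13 for Mx1, -4.60 to 0.48 for Oas1a, -0.18 to 1.71 for Oasl, -1.39 to 0.33 for Parp14 and -2.55 to 0.35 for Usp18.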
